A study of Mus musculus with 4 samples.

Results

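Eicosanoid and lysophospholipid genes were followed in 4 RNA-seq libraries of mouse T cells. The 10 genes, of 23480 gene identifiers in each library, were taken by symbol: the leukotriene receptors Cysltr1, Cysltr2 and Ltb4r1, the prostanoid receptors Ptger2, Ptger4 and Ptgir, the enzyme and accessory protein genes Ptgs2, Alox5ap and Enpp2 (autotaxin), and the lysophosphatidic acid receptor Lpar6. The labels place 2 libraries in the Th9+TLA1 condition and 2 in the Th9 condition, and the series title writes the added cytokine as TL1A, a TNF superfamily member. Th9 cells, a helper T cell subset, are named for the interleukin 9 they secrete. Nothing beyond T cell is stated for the cells shared by both groups: the labels used here name no strain, age, dose or time, and do not tie replicates to separate mice or cultures, and the spread between libraries may be technical.

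Leukotrienes and prostaglandins are made from arachidonic acid, a fatty acid released from membranes by phospholipase A2. 5-lipoxygenase, helped by the protein that Alox5ap encodes, starts the leukotriene branch, and the cyclooxygenases encoded by Ptgs1 and Ptgs2 start the prostanoid branch. Autotaxin is a secreted enzyme that turns lysophosphatidylcholine into lysophosphatidic acid, a lipid that acts on lymphocyte movement. All of these lipids act through G protein-coupled receptors, and in T cells the prostaglandin E2 receptors encoded by Ptger2 and Ptger4 are known to raise cyclic AMP.

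The depth, as reads assigned to genes, was 2979482 and 3081187 in Th9+TLA1 libraries and 4041633 and 3167270 in Th9 libraries, and 3 reads, the most that a value of 0 is taken to hide, equalled 0.742 to 1.01 CPM (a gene's reads scaled to its library's total), for counting error only. All 12 listed T cell markers passed the filter on low counts, with Cd4 at 520 and 480 CPM in Th9+TLA1 libraries and 470 and 457 CPM in Th9 libraries. Their summed level was 4683 and 4354 CPM in Th9+TLA1 libraries and 3505 and 3965 CPM in Th9 libraries. Of the 12, 6 had an unadjusted limma p under 0.05, as had 16.7% of all tested genes. Only 1, the surface glycoprotein gene Cd5, was called, as were 1.14% of all tested genes. Cd5 had 257 and 210 CPM in Th9+TLA1 libraries and 109 and 116 CPM in Th9 libraries (log2 fold change 1.13, limma adjusted p = 0.0204). Trat1, also among the 6, was lower, with 3.36 and 8.76 CPM in Th9+TLA1 libraries and 11.4 and 21.8 CPM in Th9 libraries. The 7 CD8 and NK cell markers summed to 9.73 and 10.4 CPM in Th9+TLA1 libraries and 8.91 and 13.3 CPM in Th9 libraries, most of it Cd8b1, with 4 of them at 0 in every library. The 9 mast cell and basophil markers summed to 5.03 and 0.974 CPM in Th9+TLA1 libraries and 0.247 and 5.05 CPM in Th9 libraries, with 7 of them at 0 in every library. No read was found in any library for 5 of the 9 macrophage and monocyte markers, Csf1r, Lyz2 and Cd14 among them. The summed level of the 9 macrophage and monocyte markers was 8.73 and 5.52 CPM in Th9+TLA1 libraries and 3.46 and 1.89 CPM in Th9 libraries. In Th9+TLA1 libraries most of it was Cd68, the only 1 of the 9 that was tested, and it was not called. Cd68 had 7.72 and 4.54 CPM in Th9+TLA1 libraries and 0.990 and 1.58 CPM in Th9 libraries. Adgre1 went the other way, with 0 and 0 reads in Th9+TLA1 libraries and 8 and 1 reads in Th9 libraries. The 8 B cell markers summed to 40.3 and 41.2 CPM in Th9+TLA1 libraries and 12.1 and 14.8 CPM in Th9 libraries, with Cd79b as the largest contributor and Ms4a1, Pax5 and Blk at 0. Ebf1 had 11.4 and 11.4 CPM in Th9+TLA1 libraries and 1.73 and 1.89 CPM in Th9 libraries (log2 fold change 2.21). Cd79a, also tested, overlapped between the groups, with 3.36 and 0.649 CPM in Th9+TLA1 libraries and 4.21 and 0 CPM in Th9 libraries. Of the 3 tested B cell markers, 2 had an unadjusted limma p under 0.05 (16.7% of all tested genes), and 0 were called. The 7 dendritic cell markers summed to 127 and 125 CPM in Th9+TLA1 libraries and 71.0 and 86.5 CPM in Th9 libraries, most of it Cst3 (111 and 116 CPM in Th9+TLA1 libraries and 65.3 and 83.4 CPM in Th9 libraries), with Clec9a and Siglech at 0. These T cell, B cell, macrophage and dendritic cell sums moved in the same direction as the receptors below, and their part in those results was not tested. In bulk RNA, fewer cells of a type and less RNA per cell cannot be told apart.

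The comparison asked how lipid mediator genes differed between Th9 cells with and without added TL1A. The autotaxin gene Enpp2 stood far above its Th9 level in both Th9+TLA1 libraries, and both cysteinyl leukotriene receptor genes and the prostaglandin E2 receptor genes Ptger2 and Ptger4 were also above both Th9 libraries. Ptgs2 and Alox5ap were close to or at 0 reads in both conditions. The 10 genes were selected on their lipid mediator role and on these measured differences in CPM between the groups, so the values below describe them and carry no test. Of the 10, 8 passed the filter on low counts, and Ptgs2 and Alox5ap did not. Of those 8, 3 (Enpp2, Cysltr2 and Cysltr1) were among the 118 genes, or 1.14% of 10324 tested, with a limma adjusted p under 0.05, and among the 92 of these that were higher (0.891%). In 6 of the 8 both Th9+TLA1 libraries exceeded both Th9 libraries, as in 19.1% of all tested genes. The median log2 fold change of all tested genes was -0.01.

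**Figure D1:**
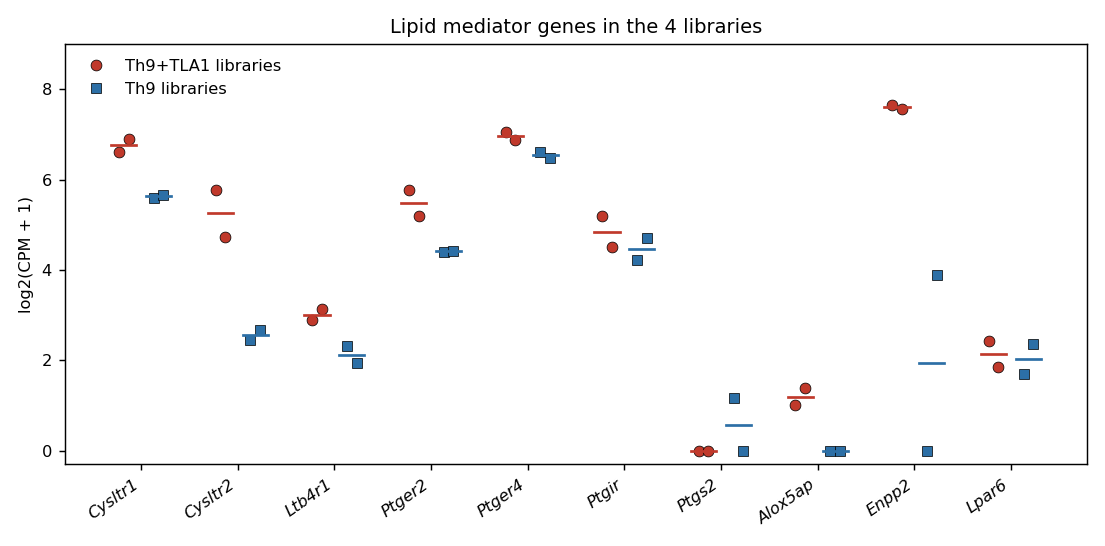
Level of each of the 10 genes in each library, as log2(CPM + 1); circles are the 2 Th9+TLA1 libraries, squares the 2 Th9 libraries, and bars their means on that scale. Enpp2 has the widest gap between the groups, and Ptgir and Lpar6 overlap.

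Enpp2 (Entrez 18606, minus strand of chromosome 15, 54838901 to 54952789 of mm10) encodes autotaxin. It had 201 and 189 CPM in the Th9+TLA1 libraries (600 and 581 reads) and 0 and 13.9 CPM in the Th9 libraries (0 and 44 reads). The Th9+TLA1 libraries lay close together and far above both Th9 libraries, while the Th9 libraries differed from each other. Its mean was 195 ± 9.06 CPM in Th9+TLA1 libraries and 6.95 ± 9.82 CPM in Th9 libraries (SD, n = 2 each). The log2 fold change on the log2(CPM + 1) scale was 5.71 ± 0.87 (SE), ranking 1 of 10324 tested genes from high to low. Against Th9 replicate 2 alone, the Th9+TLA1 libraries were 13.6-fold and 14.5-fold higher. Besides Enpp2, few genes showed its disagreement between Th9 libraries: in all, 2 tested genes had 0 reads in Th9 replicate 1 and at least 40 in Th9 replicate 2, and 2 had the reverse. Leaving out Th9 replicate 1 gave a log2 fold change of 3.76, leaving out Th9 replicate 2 gave 7.66, and it lay between 5.67 and 5.77 without either Th9+TLA1 library. In DESeq2 it was 4.86, and Enpp2 was then not among the called genes.

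The nearest tested genes on either side of Enpp2 differed between the groups by less than the spread between libraries. Ccn3, which encodes a secreted matricellular protein 85.1 kb away, had 1.34 and 10.7 CPM in Th9+TLA1 libraries and 16.3 and 3.16 CPM in Th9 libraries (limma adjusted p = 0.775). Taf2, a gene of the general transcription factor TFIID 62.3 kb to the other side, had 75.9 and 116 CPM in Th9+TLA1 libraries and 112 and 93.1 CPM in Th9 libraries (limma adjusted p = 0.966). In both, the libraries of the groups overlapped. The nearest tested neighbours of Enpp2, Cysltr2 and Cysltr1 were chosen after the values were seen. Limma called 0 of these 6 (0 at an unadjusted p under 0.05), as did edgeR's quasi-likelihood test and DESeq2. Limma voom called 0 (1 at an unadjusted p under 0.05). Over all tested genes limma called 1.14%, so 0 of 6 says little about them.

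Lpar6 (Entrez 67168, chromosome 14, 73237891 to 73240358), a receptor gene for the lipid that autotaxin makes, had 4.36 and 2.60 CPM in Th9+TLA1 libraries and 2.23 and 4.10 CPM in Th9 libraries. The groups overlapped at 8 to 13 reads per library, and the log2 fold change was 0.18 ± 0.71 (SE). It turned to -0.18 without Th9 replicate 1 and to -0.11 without Th9+TLA1 replicate 1. Lpar6 lies inside the Rb1 locus on the opposite strand, with no shared exon in GENCODE, and the library kit does not mark strand. Rb1, the retinoblastoma tumour suppressor gene, had 174 and 271 CPM in Th9+TLA1 libraries and 107 and 200 CPM in Th9 libraries. Of the other lysophosphatidic acid genes, the receptor genes Lpar1, Lpar3 and Lpar4 had 0 reads in all 4 libraries, and Lpar5 had 8 and 14 reads in Th9+TLA1 libraries and 8 and 20 reads in Th9 libraries. Of the 16 other genes of that list 6 were tested, and limma called 0 of them (1.14% of all tested genes were called). P2ry10, which encodes a lysophosphatidylserine receptor and was the most abundant of the 6, had 271 and 297 CPM in Th9+TLA1 libraries and 296 and 320 CPM in Th9 libraries. The median log2 fold change of the 6 was -0.004. Some genes of the list, named after their values were seen, were lower. Gpr174 had 60.7 and 32.1 CPM in Th9+TLA1 libraries and 75.0 and 67.9 CPM in Th9 libraries (limma adjusted p = 0.375). Pla1a and Gpr34, below the filter, had 0 reads in Th9+TLA1 libraries. In Th9 libraries Pla1a had 19 and 10 reads and Gpr34 had 13 and 5.

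The cysteinyl leukotriene receptor genes were both higher in Th9+TLA1 libraries, Cysltr2 by the larger factor. Cysltr2 (Entrez 70086, minus strand of chromosome 14, 73025672 to 73049114) had 53.7 and 25.6 CPM in Th9+TLA1 libraries (160 and 79 reads) and 4.45 and 5.37 CPM in Th9 libraries (18 and 17 reads). Both Th9+TLA1 libraries were above both Th9 libraries, but Th9+TLA1 replicate 1 was well above Th9+TLA1 replicate 2. The mean was 39.7 ± 19.8 CPM in Th9+TLA1 libraries and 4.91 ± 0.646 CPM in Th9 libraries (SD, n = 2 each), a ratio of 8.08, and the log2 fold change was 2.78 ± 0.49 (SE). It ranged from 2.25 without Th9+TLA1 replicate 1 to 3.31 without Th9+TLA1 replicate 2.

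Cysltr1 (Entrez 58861, minus strand of chromosome X, 106576509 to 106603679) encodes the receptor with the higher affinity for leukotriene D4. It had 97.3 and 118 CPM in Th9+TLA1 libraries (290 and 365 reads) and 47.3 and 49.9 CPM in Th9 libraries (191 and 158 reads). The groups were well apart relative to the spread within each, with means of 108 ± 14.9 CPM in Th9+TLA1 libraries and 48.6 ± 1.86 CPM in Th9 libraries (SD, n = 2 each). The log2 fold change was 1.22 ± 0.24 (SE) and lay between 1.09 and 1.35 whichever library was left out. The transcribed pseudogene Gm9199 (73025603 to 73026890) overlaps the 3′ end of the Cysltr2 locus and had 11.1 and 7.46 CPM in Th9+TLA1 libraries and 1.48 and 0.947 CPM in Th9 libraries. No source used here tells how reads shared by the pair were assigned, so the Cysltr2 level is uncertain to that extent.

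Ltb4r1 (Entrez 16995, chromosome 14, 55765962 to 55768492), which encodes the high-affinity receptor for leukotriene B4, was low throughout. It had 6.38 and 7.79 CPM in Th9+TLA1 libraries (19 and 24 reads) and 3.96 and 2.84 CPM in Th9 libraries (16 and 9 reads). The groups did not overlap, but the log2 fold change of 0.96 ± 0.61 (SE) was not called. Its neighbour Ltb4r2, the low-affinity receptor gene 1.90 kb away, had 0 reads in all 4 libraries.

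Of the 17 other genes on the leukotriene and lipoxygenase enzyme list, not all of them enzymes, 8 had 0 reads in all 4 libraries. Limma called 0 of the 6 that were tested. It called 1.14% of all tested genes, so 0 in lists this short says little about their genes. Alox5, which encodes 5-lipoxygenase, and Ltc4s, which encodes leukotriene C4 synthase, were among the 8. Alox5ap (Entrez 11690, chromosome 5, 149265004 to 149288153), which encodes the 5-lipoxygenase activating protein, had 3 and 5 reads in Th9+TLA1 libraries and 0 and 0 reads in Th9 libraries. These counts lie at or near the floor of 3 reads, so no fold change is given. Pla2g4a, the cytosolic phospholipase A2 gene, had 0 reads in all 4 libraries. By contrast Lta4h, which encodes leukotriene A4 hydrolase and was the most abundant tested gene among the other leukotriene and lipoxygenase enzymes, had 207 and 221 CPM in Th9+TLA1 libraries and 242 and 246 CPM in Th9 libraries (log2 fold change -0.10 ± 0.18 SE, limma adjusted p = 0.841). Of 21 genes of arachidonate release and reacylation 13 were tested and 0 called (1.14% of all tested genes were called). Acsl4, an acyl-CoA synthetase gene that prefers arachidonic acid, had 588 and 410 CPM in Th9+TLA1 libraries and 433 and 484 CPM in Th9 libraries.

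Among prostanoid receptor genes, Ptger2 was the one with the largest log2 fold change. Ptger2 (Entrez 19217, chromosome 14, 44988111 to 45003820), which encodes the prostaglandin E2 receptor EP2, had 53.4 and 35.4 CPM in Th9+TLA1 libraries (159 and 109 reads) and 20.0 and 20.5 CPM in Th9 libraries (81 and 65 reads). Both Th9+TLA1 libraries were higher, with means of 44.4 ± 12.7 CPM against 20.3 ± 0.340 CPM in Th9 libraries (SD, n = 2 each). The log2 fold change was 1.15 ± 0.34 (SE), 0.86 without Th9+TLA1 replicate 1 and 1.45 without Th9+TLA1 replicate 2, and it was not called.

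Ptger4 (Entrez 19219, minus strand of chromosome 15, 5233399 to 5244187), which encodes the receptor EP4, had 132 and 117 CPM in Th9+TLA1 libraries and 96.5 and 88.7 CPM in Th9 libraries. The groups did not overlap, yet the log2 fold change was small, 0.52 ± 0.21 (SE), and not called. Ptgir (Entrez 19222, chromosome 7, 16906490 to 16910905), the prostacyclin receptor gene, had 35.6 and 21.7 CPM in Th9+TLA1 libraries and 17.6 and 25.3 CPM in Th9 libraries. Here the groups overlapped, and the log2 fold change of 0.47 ± 0.40 (SE) ranged from 0.12 to 0.82 when 1 library was left out. Of the 7 other genes in the list of prostanoid receptors 4 were tested and limma called 0 (1.14% of all tested genes were called). Ptger1, which encodes EP1 and was the most abundant of these, had 23.8 and 14.9 CPM in Th9+TLA1 libraries and 21.3 and 17.7 CPM in Th9 libraries. Ptgdr2, which encodes the prostaglandin D2 receptor of Th2 cells, had 6.71 and 1.95 CPM in Th9+TLA1 libraries and 4.95 and 5.68 CPM in Th9 libraries, overlapping as well.

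On the synthesis side, Ptgs2 (Entrez 19225, chromosome 1, 150100031 to 150108234), the inducible cyclooxygenase gene, had 0 and 0 reads in Th9+TLA1 libraries and 5 and 0 reads in Th9 libraries. Ptgs1, the other cyclooxygenase gene, had 4 and 9 reads in Th9+TLA1 libraries and 4 and 2 reads in Th9 libraries, and the prostaglandin D2, prostacyclin and thromboxane synthase genes Ptgds, Ptgis and Tbxas1 had 0 reads in all 4. Both cyclooxygenase genes were thus at very low read counts in every library. Ptges3, which encodes a cytosolic prostaglandin E synthase that is also a co-chaperone, had 308 and 328 CPM in Th9+TLA1 libraries and 315 and 356 CPM in Th9 libraries, with overlapping groups. Of 16 other genes of prostanoid synthesis, breakdown and transport 6 were tested and limma called 0 (1.14% of all tested genes were called). Ptgr2, which encodes an enzyme of prostaglandin breakdown and is named here after its values were seen, had 32.9 and 36.3 CPM in Th9+TLA1 libraries and 77.9 and 75.1 CPM in Th9 libraries. Its log2 fold change was -1.03 ± 0.26 (SE, limma adjusted p = 0.0866), and DESeq2 called it (adjusted p = 0.0483). Ptgr1, on the same list but below the filter, went the other way. It had 21 and 8 reads in Th9+TLA1 libraries and 1 and 5 reads in Th9 libraries.

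Divided by exon length, so that genes can be set beside each other, Enpp2 had the highest mean level of the 10 in Th9+TLA1 libraries and Ptger4 in Th9 libraries. In Th9+TLA1 libraries the mean levels in CPM per kilobase of exon were 58.3 for Enpp2, 37.5 for Ptger4, 22.0 for Cysltr2, 21.0 for Cysltr1, 12.0 for Ptger2, 8.60 for Ptgir and 5.08 for Ltb4r1. The library ranges of Cysltr2 and Cysltr1 overlapped, as did those of Ptger2 and Ptgir, so these neighbours in the order did not differ beyond their spread. In Th9 libraries the order of the mean levels per kilobase was Ptger4 with 27.8, Cysltr1 with 9.45, Ptgir with 6.42, Ptger2 with 5.51, Cysltr2 with 2.73, Ltb4r1 with 2.44 and Enpp2 with 2.08. There Ptgir overlapped Ptger2, and Cysltr2, Ltb4r1 and Enpp2 overlapped each other. Alox5ap, Lpar6 and Ptgs2 were under 1 CPM per kilobase as a mean of either group. For Lpar6 the GENCODE exon length of 5400 bases exceeds the RefSeq span given above, and the shorter length would give a higher level.

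**Figure D2:**
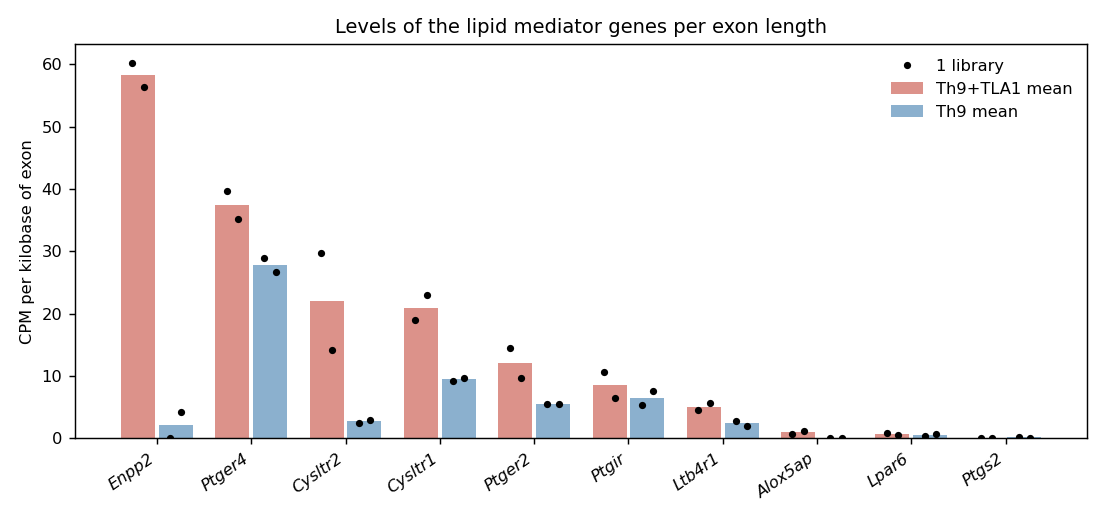
Level of the 10 genes in CPM per kilobase of exon (union of GENCODE basic exons), in the order of the Th9+TLA1 means; bars are group means from 0 and black points single libraries. Enpp2 reaches 58.3 in Th9+TLA1 and 2.08 in Th9 libraries, while Ptger4 is at 37.5 and 27.8.

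Of the 10 genes 4 lie on chromosome 14, where Cysltr2 and Lpar6 are 189 kb apart, and 2 on chromosome 15. RefSeq promoter sequences, 250 bases before to 50 after the gene's start, were matched for 7 of the 10 genes, and Enpp2, Cysltr1 and Alox5ap had no entry. The promoters of Cysltr2, Ptger2 and Ptger4 are printed because these 3 receptor genes were above both Th9 libraries and differ in fold change and level. Ltb4r1 was also above both Th9 libraries but low throughout, and its promoter is not printed. They are given 5′ to 3′ on the gene's strand in GRCm38.p6, with CG dinucleotides, the sites of DNA methylation, in capitals.
Cysltr2, chr14:73049065-73049364, minus strand: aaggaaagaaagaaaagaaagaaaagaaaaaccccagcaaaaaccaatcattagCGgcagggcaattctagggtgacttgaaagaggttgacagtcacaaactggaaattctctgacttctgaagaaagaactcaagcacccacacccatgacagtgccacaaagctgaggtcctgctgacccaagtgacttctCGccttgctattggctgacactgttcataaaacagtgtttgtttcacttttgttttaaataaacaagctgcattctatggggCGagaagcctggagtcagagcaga
Ptger2, chr14:44987861-44988160, plus strand: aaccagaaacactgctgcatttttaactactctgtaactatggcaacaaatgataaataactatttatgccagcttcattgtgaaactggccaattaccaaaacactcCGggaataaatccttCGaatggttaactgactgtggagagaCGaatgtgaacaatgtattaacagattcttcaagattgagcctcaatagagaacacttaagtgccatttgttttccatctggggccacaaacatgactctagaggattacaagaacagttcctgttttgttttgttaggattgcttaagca
Ptger4, chr15:5244138-5244437, minus strand: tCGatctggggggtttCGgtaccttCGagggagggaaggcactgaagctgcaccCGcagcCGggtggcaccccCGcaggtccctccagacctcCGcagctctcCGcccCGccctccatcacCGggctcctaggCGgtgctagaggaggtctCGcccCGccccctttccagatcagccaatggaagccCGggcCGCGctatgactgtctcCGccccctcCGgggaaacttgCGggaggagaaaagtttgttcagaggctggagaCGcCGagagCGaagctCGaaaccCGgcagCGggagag

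The Cysltr2 and Ptger2 promoters hold 3 CG dinucleotides each and the Ptger4 promoter holds 25, where the median of 32851 mouse promoters of the same length is 7. CG content thus differed widely between these receptor genes: 23.3% of all promoters have fewer CG than Cysltr2 and Ptger2, and 81.6% have fewer than Ptger4. Ltb4r1 has 3, Ptgir 6, Lpar6 1 and Ptgs2 16. On both strands, 4 motifs were searched in the 7 promoters, and none had a match. The AP-1 motif TGANTCA is in 7.81% of all promoters. The cyclic AMP response element TGACGTCA is in 1.79%, the STAT motif TTCNNNGAA in 8.30% and the TATA box motif TATAAA in 13.6%. The absence of a match says only that these letters are not in these windows.

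Beyond the 10 genes, 141 others on 9 lists of eicosanoid, lysophospholipid, sphingosine 1-phosphate, G protein and cyclic AMP genes were matched, and 88 of them were tested. The cyclic AMP genes Pde4b and Nr4a2 rose, 2 of 88 (2.27%, against 1.14% of all tested genes), and 0 fell. DESeq2 called 3 of the 88 (275 of all 10324 tested genes), with Ptgr2 as the 1 that was lower. At an unadjusted limma p under 0.05, 9 of the 88 were higher and 5 lower, near the share over all tested genes (1722 of 10324, or 16.7%). The median log2 fold change of the 88 was 0.17, against -0.01 over all tested genes. Pde4b, which encodes a phosphodiesterase that breaks down cyclic AMP, rose to 216 and 163 CPM in Th9+TLA1 libraries, against 56.2 and 70.7 CPM in Th9 libraries. Its log2 fold change was 1.65 ± 0.24 (SE, limma adjusted p = 0.00685), and both Th9+TLA1 libraries were above both Th9 libraries. Leaving out Th9 replicate 2 ended the call (adjusted p = 0.0912, log2 fold change 1.87), and over the other alternatives the adjusted p ranged from 4.64e-07 to 0.0426. Nr4a2, an orphan nuclear receptor gene induced by cyclic AMP and T cell receptor signals, had 72.2 and 47.4 CPM in Th9+TLA1 libraries and 13.1 and 7.26 CPM in Th9 libraries (log2 fold change 2.55 ± 0.40 SE, limma adjusted p = 0.0104). Leaving out Th9 replicate 2 (adjusted p = 0.125) or testing with no filter on low counts (adjusted p = 0.0511) ended that call; over the other alternatives the adjusted p ranged from 1.39e-06 to 0.0265.

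Other genes of the cyclic AMP and G protein lists were not called. Crem, which encodes a cyclic AMP-responsive transcription factor, had 467 and 426 CPM in Th9+TLA1 libraries and 254 and 376 CPM in Th9 libraries (limma adjusted p = 0.189). Pde4d, a close relative of Pde4b, had 92.3 and 76.9 CPM in Th9+TLA1 libraries and 53.9 and 48.0 CPM in Th9 libraries (limma adjusted p = 0.138). Nr4a3, from the same family as Nr4a2, had 1.01 and 1.95 CPM in Th9+TLA1 libraries and 12.6 and 7.89 CPM in Th9 libraries (limma adjusted p = 0.149). In all 3 the groups did not overlap, and these 3 are named after their values were seen. Gnas, which encodes the stimulatory G protein alpha subunit used by EP2 and EP4, had 771 and 706 CPM in Th9+TLA1 libraries and 637 and 768 CPM in Th9 libraries, with overlapping groups. Prkar1a, a regulatory subunit gene of the cyclic AMP-dependent kinase, had 967 and 936 CPM in Th9+TLA1 libraries and 1098 and 1224 CPM in Th9 libraries (limma adjusted p = 0.636). Among 8 tested sphingosine 1-phosphate genes limma called 0 (1.14% of all tested genes), with 2 at an unadjusted p under 0.05 (16.7% of all tested genes). The most abundant, the phosphatase gene Sgpp1, had 301 and 317 CPM in Th9+TLA1 libraries and 189 and 235 CPM in Th9 libraries (limma adjusted p = 0.136).

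**Figure D3:**
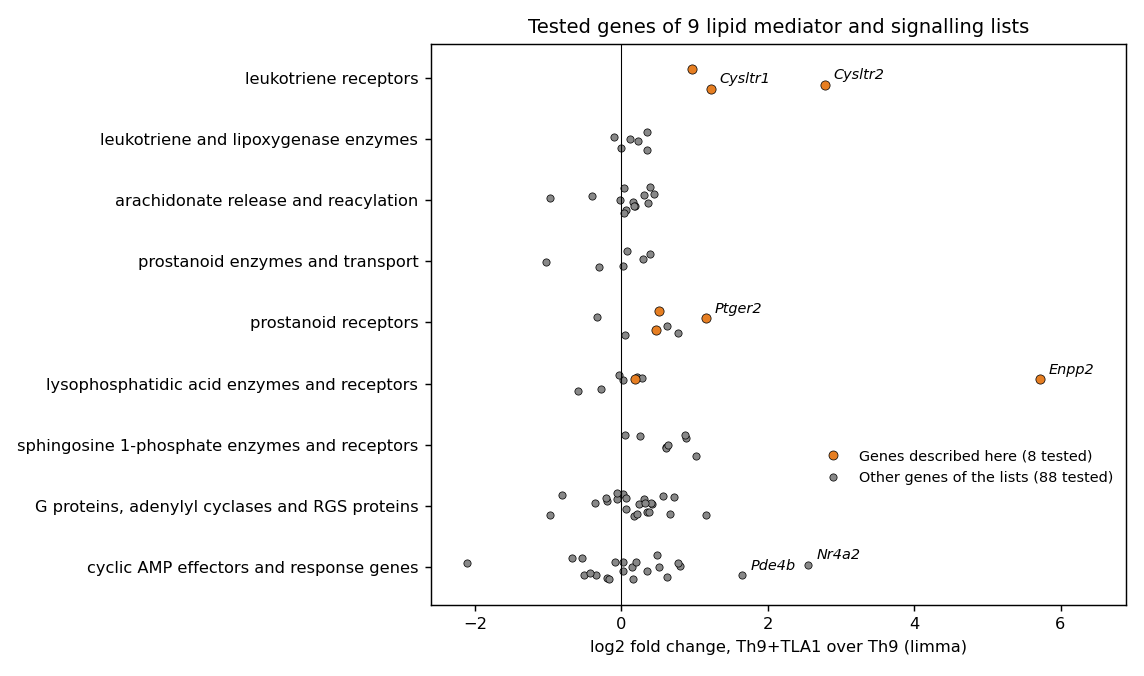
Log2 fold change (Th9+TLA1 over Th9, limma on log2(CPM + 1)) of each tested gene of the 9 lists, 1 row per list, with vertical scatter added for legibility; orange points are the 8 tested genes of the 10 described here and grey points the 88 other tested genes. Enpp2 lies at 5.71 and Cysltr2 at 2.78; Pde4b and Nr4a2 are the called grey points.

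The genes with the most similar profiles were found by the root mean square difference of centred log2(CPM + 1) values over the 4 libraries. For Cysltr1 the nearest were Gmfg, the glia maturation factor gamma gene, at a difference of 0.05, and Gpr132, a G protein-coupled receptor gene, at 0.07. Gpr132 had 103 and 117 CPM in Th9+TLA1 libraries and 53.2 and 50.5 CPM in Th9 libraries, levels close to those of Cysltr1 in each library. For Cysltr2 the nearest were P2ry2, a nucleotide receptor gene, at 0.09, with 16.1 and 7.79 CPM in Th9+TLA1 libraries and 0.990 and 1.26 CPM in Th9 libraries, and Ttc26 at 0.16. In Th9 libraries P2ry2 had 4 and 4 reads and Ttc26 had 0 and 0, at or near the floor of 3 reads. Neither gene was called. No close match was found for Enpp2: its nearest genes, Il1r1 and Insl5, lay at 1.23 and 1.35. Il1r1, Insl5 and Gpr132 were among the called genes, and Gmfg was not. Likeness over 4 libraries mainly reflects the difference between the groups.

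Leaving out a library leaves 1 group with a single library, and the calls, which only describe genes chosen on this difference, then changed. Enpp2 was among the called genes whichever library was left out. Cysltr2 was not called without Th9+TLA1 replicate 1, Th9 replicate 1 or Th9 replicate 2, and Cysltr1 was not called without Th9+TLA1 replicate 2, Th9 replicate 1 or Th9 replicate 2. With total count scaling Cysltr1 lost its call, and when all genes were tested with no filter 0 of the 10 were called.

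**Figure D4:**
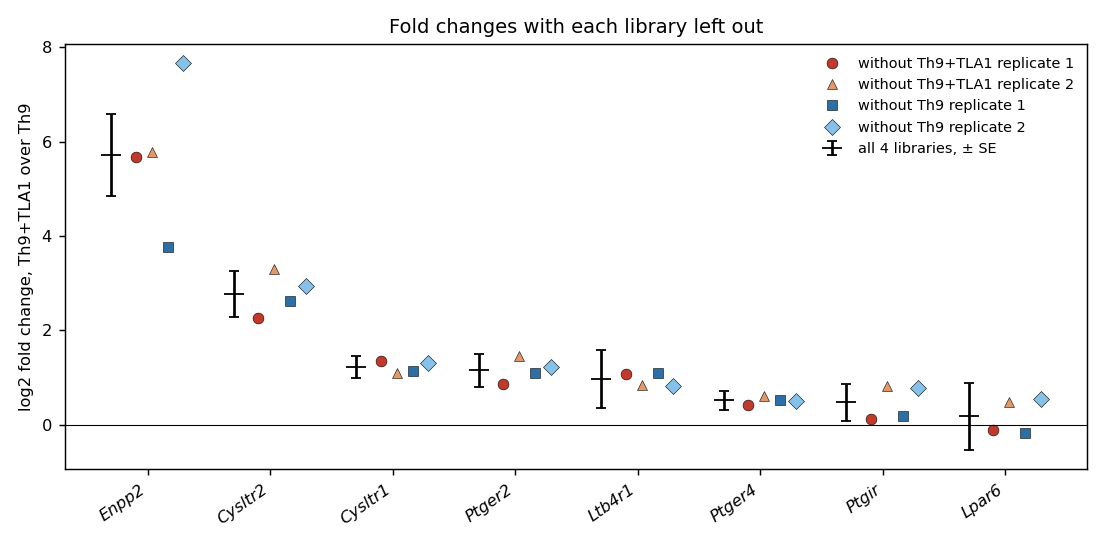
Log2 fold change (Th9+TLA1 over Th9) of the 8 tested genes, with all 4 libraries (black, ± SE) and with each library left out in turn (coloured symbols). Enpp2 moves between 3.76 and 7.66 with the Th9 library that is left out, and Lpar6 is on both sides of 0.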

How the data were processed

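RNA of 4 mouse T cell libraries (2 Th9+TLA1, 2 Th9) was amplified as cDNA by the SMARTer Ultra Low Input method, then sequenced on an Ion Torrent instrument, per the labels' protocols. Per the submitters' processing notes, mm10, edgeR and HTSeq 0.5.4 were used; on aligner and annotation nothing is given in the sources used here. CPM were deposited by the authors, scaled to the reads counted in genes of each library. Whole reads were recovered from 100% of non-zero values (tolerance 0.01 read), and edgeR's quasi-likelihood test on those reads called 110 genes. Symbols and coordinates came from RefSeq for GRCm38.p6, which matched 23383 of 23480 identifiers, and exon lengths from GENCODE for the same assembly. Genes were kept by filterByExpr (minimum count 10). CPM were divided by TMM factors (0.964 to 1.06), and log2(CPM + 1) was fitted with limma (eBayes with trend) on the group, with Benjamini-Hochberg adjustment over 10324 genes. Printed CPM are the deposited ones. The 10 genes and the lists were chosen with earlier results of these data known. Genes named were the 10, all called genes of the pathway lists, each list's most abundant tested gene, and the 2 nearest profiles of the 3 genes with the largest fold changes. The markers, neighbours, overlapping genes and further pathway genes, such as those at or near 0 reads, were named after their values were seen. Predicted genes were skipped among profiles. Symbols of 2 listed genes were matched as synonyms. Replicates were not copies, since the variance between their counts was 7.64 (Th9+TLA1) and 12.6 (Th9) times that of sampling noise (chi-square per degree of freedom). The alternatives were other scaling, filters, pseudocounts and tools, the replicate number as a block, and leaving out each library. The software was Python 3.11.15 with matplotlib 3.10.9, numpy 2.4.6 and pandas 2.3.3, and R 4.3.3 with DESeq2 1.42.0, edgeR 4.0.16 and limma 3.58.1.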

Additional observations from a re-analysis of the deposited data

How the results depend on the processing

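Over all tested genes the count of 118 called became 73 with total count scaling, 33 without a filter on low counts, 275 with DESeq2, and 19 to 155 with 1 library left out (42 without Th9 replicate 1, 19 without Th9 replicate 2). The split of 92 higher and 26 lower became 87 and 68 without Th9+TLA1 replicate 1, 50 and 46 without Th9+TLA1 replicate 2, 39 and 3 without Th9 replicate 1, and 19 and 0 without Th9 replicate 2. The pathway genes called, 2 of 88, became 1 without a filter on low counts and 0 to 2 with 1 library left out, the 0 being without Th9 replicate 2. DESeq2 called 3 of the 88, Nr4a2 and Pde4b as higher and Ptgr2 as lower. With the replicate number as a block, 225 genes were called, with Nr4a2 and Pde4b as the only pathway genes among them. The labels do not say that the numbers pair libraries. The deviations of same-numbered libraries from their group means correlated at -0.01 across genes. Of 118 alternative fold changes of the 8 tested genes of the 10, 2 changed sign, both of Lpar6 (-0.18 to 0.55 with 1 library left out). With 1 library left out the log2 fold change ranged from -0.076 to 0.46 for Acsl4, -0.12 to 0.16 for Ptges3, -0.28 to 0.38 for Ptger1, -0.13 to 0.083 for P2ry10 and -0.013 to 0.36 for Gnas, and with total count scaling it was -0.075 for Ptges3 and -0.037 for Ptger1; none of these genes was called. Where an arm is left with 1 library, its spread is assumed to equal that of the other group. The cause of these shifts was not tested. Alox5ap, Ptgs2, Lpar6 and Ltb4r1 rest on at most 24 reads in any library.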
